A study of Rattus norvegicus with 12 samples.

Results

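The genes described here are the expressed members of the Zfp series of rat zinc finger genes, that is, genes whose symbol is Zfp followed by a number. Zfp36, an RNA-binding protein with fingers of another type, was left out. Members were chosen by their raw counts: a row was kept when its counts summed over all 12 libraries reached 2400, a mean of 200 per library. Of 256 such rows in a table of 30454 genes, 117 met the rule, 138 fell under it, and 10 of the 256 had no count at all. Just inside the limit were Zfp394 with 2469 counts, Zfp341 with 2453 and Zfp111 with 2414, and just outside were Zfp524 with 2399, Zfp560 with 2388 and Zfp13 with 2386. The member totals ran from 2414 to 37708 counts. The 117 rows carry 116 symbols, because Zfp689 is listed under 2 gene identifiers with 9592 and 4596 counts. Reads could be split between these rows, so their values are uncertain. Finger sequences repeat across the family, and how reads that match several genes or the opposite strand were counted is not stated in the sources used here.

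The data are 12 bulk RNA-seq libraries from rat cells that carry the label PC12, a line derived from a tumour of the adrenal medulla. All groups were deprived of oxygen and glucose and then reoxygenated (OGDR), which is a culture model of ischaemia and reperfusion, and were collected at 48 h. The 4 OGDR libraries had no further treatment, the 4 MSC libraries also received mesenchymal stem cells, and the 4 rTMS_MSC libraries received these stem cells together with repetitive transcranial magnetic stimulation at 10 Hz. The series text speaks of 20 samples and a microarray, whereas the labels describe 12 sequencing libraries. Cells without deprivation and cells stimulated without stem cells were not analysed here, so the stimulation was compared only on top of stem cells. From which species the stem cells came, and how the deprived cells met them, is not stated in the sources used here. Separate cultures are not named in the labels for the 4 samples of each group, so a p-value here reflects the spread between these samples alone, which may be technical.

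Most proteins of this kind carry C2H2 fingers, small folds held by a zinc ion that read DNA when placed in tandem. Many join the fingers to a KRAB or SCAN domain, and the KRAB domain recruits the corepressor Trim28 and, through it, the histone methyltransferase Setdb1 to silence transposons and genes. Others act as activators at promoters, as scaffolds of chromatin complexes, or bind RNA, ribosomes or ubiquitin instead of DNA. The symbol therefore marks a type of fold rather than a single pathway.

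The promoter windows of the members that the results turn on are shown first, because they let the members that fell most with stimulation be compared by their letters. Each window runs from 250 bases before to 50 bases after the gene's start, on the gene's strand, 5′ to 3′, from RefSeq with build GRCr8, whereas the counts were made on mRatBN7.2. The 4 windows belong to the members with the largest decreases from MSC to rTMS_MSC. Capitals mark matches, on either strand, to any of 8 short motifs. The ETS site, bound by a large family of activators, was searched as CCGGAAG. The GC box, which Sp1 and its relatives bind, was searched as GGGCGG. The box named CCAAT, to which NF-Y binds, was searched by the letters of its name. For the cyclic AMP response element, read by CREB, the letters were TGACGTCA. For the core of the site of NRF1, an activator of mitochondrial genes among others, they were GCATGCGC. For the core of the site of YY1, a factor that marks many promoters, they were AAGATGGC. The E-box, read by Myc and other helix-loop-helix proteins, was searched as CACGTG, and the box that gives TATA promoters their name was searched in its form TATAAA.
Zfp507 (chr1:97605356-97605655, minus strand): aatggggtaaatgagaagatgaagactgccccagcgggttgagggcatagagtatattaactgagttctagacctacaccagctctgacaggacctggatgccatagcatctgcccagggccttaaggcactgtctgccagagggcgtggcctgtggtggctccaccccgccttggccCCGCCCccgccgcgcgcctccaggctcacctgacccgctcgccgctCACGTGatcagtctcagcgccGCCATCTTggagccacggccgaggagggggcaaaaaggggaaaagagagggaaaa
Zfp106 (chr3:127964205-127964504, minus strand): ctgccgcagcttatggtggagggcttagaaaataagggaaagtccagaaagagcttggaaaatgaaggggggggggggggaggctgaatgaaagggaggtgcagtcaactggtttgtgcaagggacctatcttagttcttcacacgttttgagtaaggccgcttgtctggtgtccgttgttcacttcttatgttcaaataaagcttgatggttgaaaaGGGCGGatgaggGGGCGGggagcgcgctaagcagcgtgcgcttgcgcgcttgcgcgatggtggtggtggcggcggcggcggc
Zfp800 (chr4:57814160-57814459, minus strand): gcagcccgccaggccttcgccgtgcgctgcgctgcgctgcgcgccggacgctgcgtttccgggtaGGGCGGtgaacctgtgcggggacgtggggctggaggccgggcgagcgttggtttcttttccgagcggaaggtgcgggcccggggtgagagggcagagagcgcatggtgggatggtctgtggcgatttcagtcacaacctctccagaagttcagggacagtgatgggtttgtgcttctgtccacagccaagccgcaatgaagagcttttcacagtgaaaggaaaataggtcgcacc
Zfp292 (chr5:54264389-54264688, minus strand): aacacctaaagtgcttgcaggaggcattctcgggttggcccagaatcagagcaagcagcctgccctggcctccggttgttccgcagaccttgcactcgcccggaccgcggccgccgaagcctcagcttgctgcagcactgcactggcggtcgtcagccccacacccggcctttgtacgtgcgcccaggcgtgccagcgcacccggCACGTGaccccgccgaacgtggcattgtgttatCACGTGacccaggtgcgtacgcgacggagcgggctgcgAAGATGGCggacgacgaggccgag

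The windows of Zfp507 and Zfp292 both held the YY1 core and an E-box, and the windows of Zfp106 and Zfp800 held GC boxes alone. A window was found for 98 of the 116 member symbols, and the first was used for the 14 with several. The GC box was in 51 of these 98 windows (52.0%), against 33.1% of all 33469 windows of the same length in the table. The ETS site was in 17 (17.3% against 8.75%), the CCAAT box in 39 (39.8% against 37.5%) and the TATA box in 11 (11.2% against 14.2%). The median GC content of the member windows was 59.7%, against 51.7% over all windows. The set of all windows was not limited to genes expressed here, and it took every window of a gene. These figures therefore do not set the members against other expressed genes. The YY1 core was in 5 of the 22 windows of members that fell from MSC to rTMS_MSC, in 1 of the 73 windows of members not called in that comparison, and in 3.17% of all windows. For the E-box these figures were 4 of 22, 5 of 73 and 6.42%, and for the GC box 12 of 22, 38 of 73 and 33.1%. In the same 22 and 73 windows the ETS site was in 4 and 12 and the CCAAT box in 8 and 29. The TATA box was in 2 and 8 and the NRF1 core in 1 and 5. The cyclic AMP response element was in 1 and 1. The YY1 core is thus 1 of 8 motifs searched. The median GC content was 62.33% in the windows of members that fell and 57.67% in those of members not called. Matches to different motifs were counted apart even where they overlap. A match describes letters and not a bound site, and the share of each motif was not tested.

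The libraries held 18246250 to 20471838 counts in genes, and 13692 genes passed the filter on low counts, the 117 members among them. The markers of the labelled cell type were mostly at or near 0: Ddc had no count, and the mean levels of Th, Dbh and Chga were 0.479, 0.638 and 0.0722 CPM (CPM scales each count by the TMM-scaled size of its library). Of 8 chromaffin markers only Scg2 was abundant, at 234 CPM, and the 8 summed to 272 to 339 CPM in OGDR, 189 to 233 in MSC and 200 to 214 in rTMS_MSC. The Schwann cell markers Sox10, S100b and Erbb3 stood at 397, 257 and 142 CPM, and the 5 glial markers summed to 736 to 821, 844 to 894 and 807 to 913 CPM in the same order. Of 9 stromal markers, whose defining gene Lum had no count, the sum was 297 to 319, 310 to 336 and 232 to 306 CPM, nearly all of it Pdgfra. Macrophage markers summed to at most 4.29 CPM. The part of these cell type differences in the results was not tested. In bulk libraries, fewer cells of a type and less RNA per cell cannot be told apart. Library rTMS_MSC 3 stood apart from the other 3 of its group: genes of ribosomal proteins took 3.49% of its counts, against 2.76% to 3.00% in the others, 2.88% to 3.12% in OGDR and 2.44% to 2.69% in MSC.

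More members were called in the comparisons of the stimulated libraries than between MSC and OGDR, and most of these calls were downward. With adjusted p under 0.05, 27 of the 117 members fell from MSC to rTMS_MSC (23.1%) and 3 rose (2.56%). In the same comparison, 10.9% of all tested genes fell and 7.14% rose, and among the 9462 tested genes with at least 2400 counts 13.7% fell and 9.69% rose. The median log2 fold change of the members was -0.13, against 0.01 for genes with at least 2400 counts, and 82 members (70.1%) lay below 0, against 47.3% of those genes. From OGDR to rTMS_MSC, 35 members fell (29.9%) and 8 rose (6.84%), where 16.2% of all tested genes fell and 16.2% rose, and 19.9% and 19.0% of those with at least 2400 counts. Here the members' median was -0.16, against 0.00 (0.0030), and 87 members (74.4%) lay below 0, against 49.4%. Adding stem cells without stimulation gave fewer calls: 9 members fell from OGDR to MSC (7.69%) and 5 rose (4.27%). These shares were below those of all tested genes, of which 8.63% fell and 11.6% rose, and of genes with at least 2400 counts, of which 10.8% fell and 13.7% rose. The median was 0.01 for the members and -0.01 for those genes. The 3 comparisons share their groups, so that a value in a shared group moves 2 of them.

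**Figure D1:**
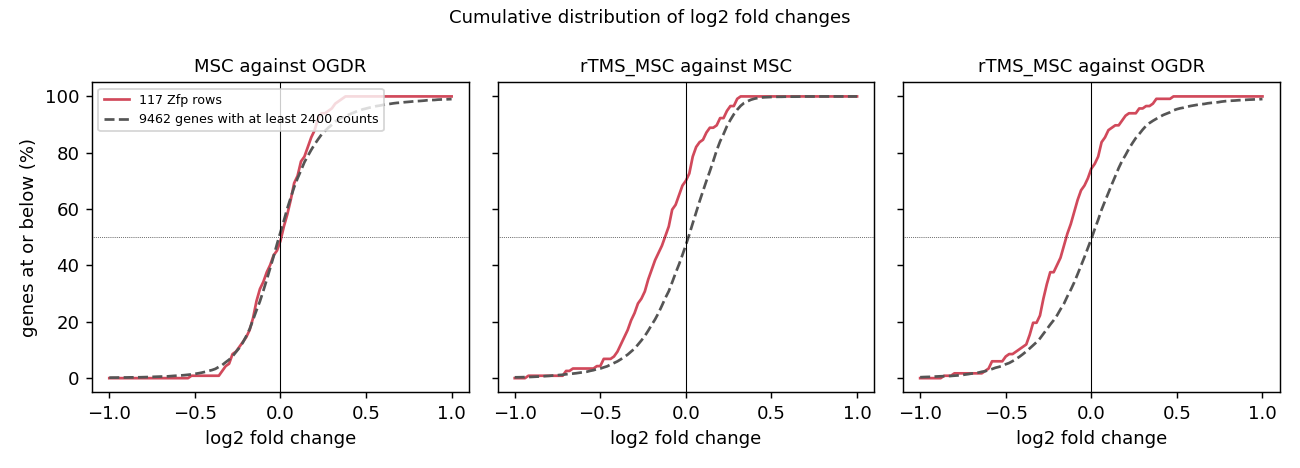
Cumulative share of genes (y axis, percent) at or below each log2 fold change (x axis) in the 3 comparisons, for the 117 Zfp rows (solid) and the 9462 tested genes with at least 2400 counts (dashed). The curves lie together for MSC against OGDR, and in both comparisons of rTMS_MSC the Zfp curve is shifted to lower values, with medians of -0.13 and -0.16.

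The differences were small. No member called in any comparison changed more than 2-fold, and those past 1.5-fold numbered 0 from OGDR to MSC, 4 from MSC to rTMS_MSC (3.42%) and 6 from OGDR to rTMS_MSC (5.13%). Of the genes with at least 2400 counts, 4.10%, 2.29% and 6.52% were called past 1.5-fold in these comparisons, so the last 2 shares of the members lie near those of other genes. In all, 61 members were called in at least 1 comparison and 56 in none. The matching share of other genes was not counted, so these totals cannot be set against a background. The members spread slightly more between replicates than other genes did: the median coefficient of variation was 7.97% in OGDR, 8.39% in MSC and 10.2% in rTMS_MSC, against 6.63%, 6.91% and 8.60% for genes with at least 2400 counts. The members also have fewer counts: counting error alone gives a median of 4.54%, 4.52% and 4.74% for them, against 3.16%, 3.23% and 3.22% for those genes.

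The members' CPM summed to 3897 ± 41.4 in OGDR, 3879.6 ± 84.7 in MSC and 3561 ± 111 in rTMS_MSC (SD, n = 4). The stimulated libraries lay between 3400.5 and 3652 and the other 8 between 3790.1 and 3971, so the groups did not overlap. Library rTMS_MSC 3 was the lowest at 3400.5, and it held the lowest value of all 12 libraries for 50 members, against 19 in rTMS_MSC 4 and 3 to 9 in each of the other 10. These are 42.7% and 16.2% of the members, where 26.5% and 3.41% of genes with at least 2400 counts were lowest in the same libraries. Without rTMS_MSC 3, 18 members fell from MSC to rTMS_MSC (15.4%, against 9.73% of genes with at least 2400 counts) and 1 rose, and 30 fell from OGDR to rTMS_MSC (25.6%, against 17.3%) and 6 rose. Of the 18, 17 were also among the 27. The number that rose from OGDR to MSC was then 9 (7.69%), against 5 with all libraries (4.27%), and the share of genes with at least 2400 counts that rose was 16.6%, against 13.7%.

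Leaving out MSC libraries also lowered the counts for rTMS_MSC against MSC. Without MSC 1, 15 members fell (12.8%, against 8.82% of genes with at least 2400 counts) and 1 rose. Without MSC 3, 14 fell (12%, against 6.76%). With MSC 3 and rTMS_MSC 3 both left out, 7 fell (5.98%, against 5.03%) and 0 rose (0%, against 1.54%). The median of the members was then -0.09, against 0.0058 for genes with at least 2400 counts. Of the 117 members 85 lay below 0, and the share of those genes below 0 was not counted in this fit. Among the named members, 15 called from MSC to rTMS_MSC lost that call without both libraries, with adjusted p of 0.05998 to 0.2345: Zfp133, Zfp207, Zfp236, Zfp292, Zfp318, Zfp407, Zfp451, Zfp516, Zfp592, Zfp644, Zfp687 and Zfp800 among the lower, and Zfp18, Zfp277 and Zfp637 among the higher. From OGDR to rTMS_MSC, 7 did, with adjusted p of 0.05922 to 0.2475: Zfp146, Zfp217, Zfp318, Zfp407 and Zfp445 among the lower, and Zfp579 and Zfp771 among the higher. The comparison with OGDR moved less: 29 members fell there without these 2 libraries (24.8%, against 17.9%), 26 without OGDR 3 (22.2%, against 15.3%) and 26 without OGDR 4 (22.2%, against 15.7%). Without OGDR 3, 4 members rose instead of 8 (3.42%, against 15.2%), and without rTMS_MSC 1, 5 did (4.27%, against 18.2%). From OGDR to MSC, 5 members fell without OGDR 2 or without MSC 4 and 6 without OGDR 3 or without MSC 3, instead of 9. These are 4.27% to 5.13% of the members, against 8.54% to 10.3% of genes with at least 2400 counts. Without MSC 4, 8 rose (6.84%, against 13%).

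**Figure D2:**
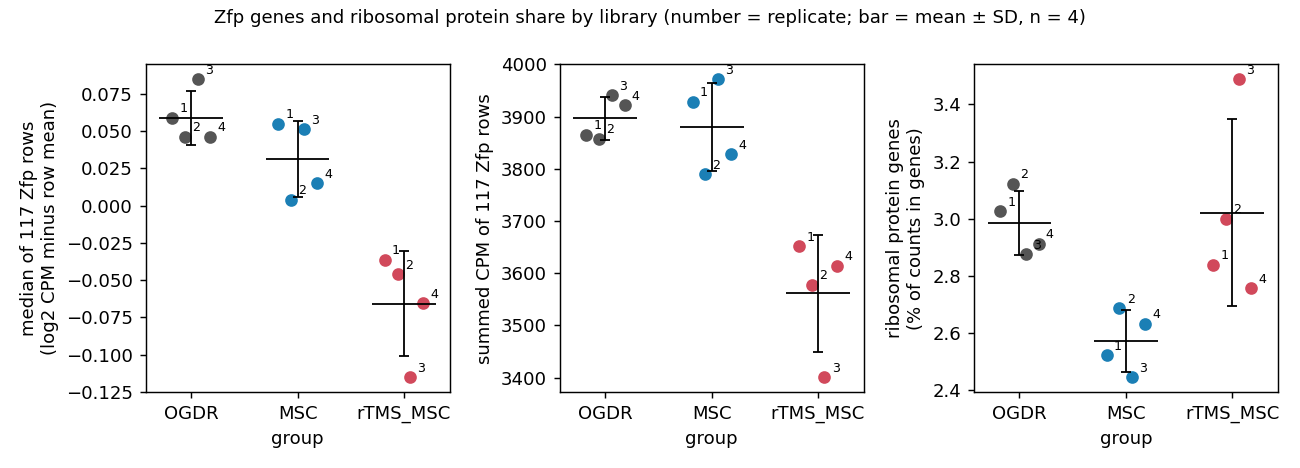
The median deviation of the 117 Zfp rows from their own means (left, log2 CPM), their summed CPM (middle) and the share of counts in ribosomal protein genes (right, percent) in each library, with replicate numbers, and mean ± SD (n = 4) per group. The 4 stimulated libraries sum to 3400.5 to 3652 CPM, below the other 8, and rTMS_MSC 3 is lowest in the first 2 panels and highest in the third, at 3.49%.

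**Figure D3:**
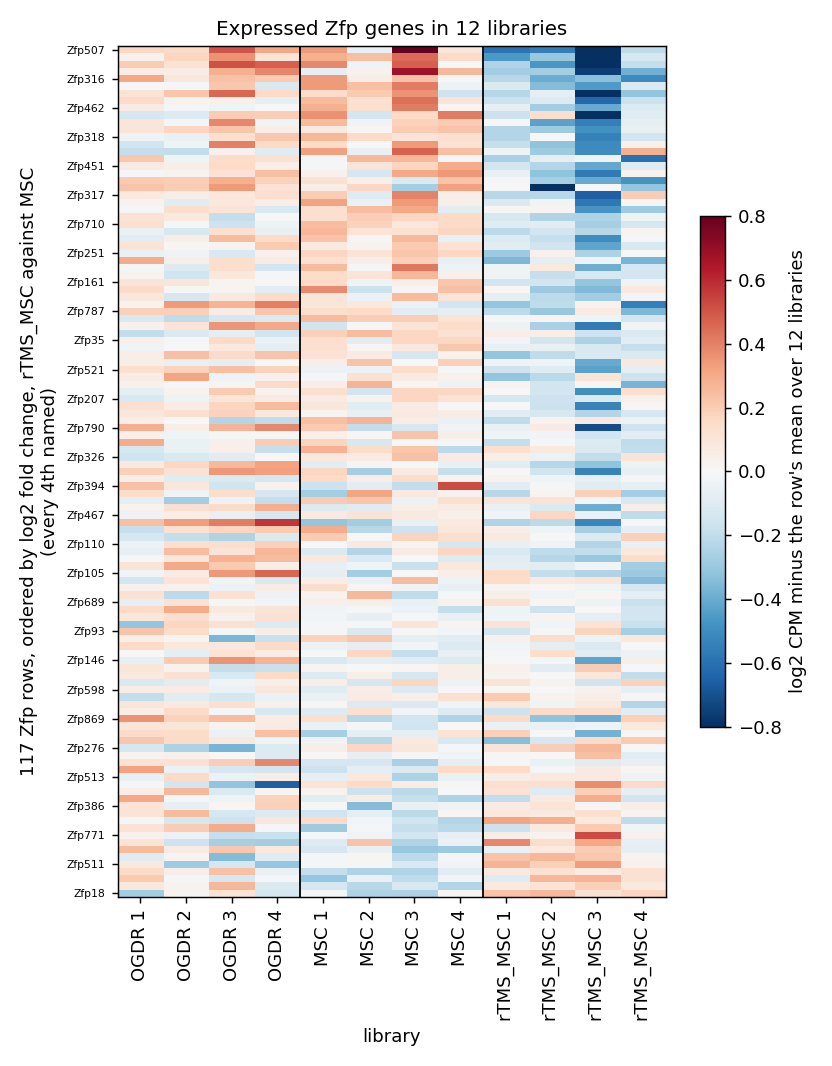
Each of the 117 Zfp rows (y axis, ordered by the log2 fold change of rTMS_MSC against MSC) in each library (x axis), coloured by log2 CPM minus the row's mean, with colours ending at -0.8 and 0.8. Most rows are lighter or blue in the 4 stimulated libraries, the deepest in rTMS_MSC 3, and a smaller block at the bottom is higher there.

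Promoter-binding and chromatin proteins made up a list of 19 members, and 8 of them fell from MSC to rTMS_MSC (42.1%, against 13.7% of genes with at least 2400 counts). In that comparison 10 of the 19 had an unadjusted p under 0.05, as had 4001 of the 9462 genes with at least 2400 counts. Of the 19 estimates 17 lay below 0 (89.5%, against 47.3% of those genes), and the median was -0.25. Between OGDR and MSC 1 rose and 1 fell (5.26% each, against 13.7% and 10.8%) with a median of 0.05, and from OGDR to rTMS_MSC 6 fell (31.6%, against 19.9%) with a median of -0.16. The lists overlap in none of their members, but they were drawn up with earlier results of these data known, and no list was tested against the others.

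Zfp217 is an oncogenic factor that binds the CoREST, LSD1 and CtBP repressor complex. It stood at 36.6, 36.2, 42.6 and 33.7 CPM in the OGDR libraries, 46.4, 43.3, 48.7 and 35.5 in the MSC libraries and 33.8, 28.8, 26.8 and 33.8 in the rTMS_MSC libraries. The stimulated libraries were all below the MSC libraries and overlapped with OGDR. Zfp217 had a log2 fold change of -0.50 (SE 0.10, adjusted p = 0.00429) from MSC to rTMS_MSC. Against OGDR it was -0.28 (SE 0.10, adjusted p = 0.0489), a call lost without OGDR 1, OGDR 2, OGDR 3, MSC 1, MSC 2, rTMS_MSC 2 or rTMS_MSC 3, each left out in turn (adjusted p = 0.0567 to 0.18).

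Zfp462 guards cell identity in embryonic stem cells through heterochromatin. Its levels were 56.7, 53.6, 52.9 and 53.97 CPM in the OGDR libraries, 66.02, 59.1, 72.3 and 54.8 in the MSC libraries and 51.9, 44.8, 41.03 and 50.2 in the rTMS_MSC libraries. All stimulated libraries lay below all others, and MSC 3 was the highest of the 12. Zfp462 had a log2 fold change of -0.42 (SE 0.09, adjusted p = 0.00404) against MSC and -0.21 (SE 0.09, adjusted p = 0.0771) against OGDR, of which only the first passed the test.

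Zfp644, a partner of the H3K9 methyltransferases G9a and GLP, was lower than in both other groups, with 26.1 ± 1.41, 26.1 ± 1.81 and 19.9 ± 2.39 CPM (SD, n = 4) in OGDR, MSC and rTMS_MSC. Zfp644 had a log2 fold change of -0.39 (SE 0.09, adjusted p = 0.00891) against MSC and -0.40 (SE 0.09, adjusted p = 0.00318) against OGDR, and the highest stimulated library, at 22.8 CPM, was below the lowest of the other 8, at 24.0. The first of these calls was lost without MSC 3 and rTMS_MSC 3 together (adjusted p = 0.08155). The 3 related proteins Zfp592, Zfp687 and Zfp532 form a complex with the histone reader ZMYND8. All 3 fell from MSC to rTMS_MSC, by 0.30, 0.23 and 0.27 on the log2 scale, with adjusted p of 0.0169, 0.0215 and 0.0148. The first 2 of these calls were lost without MSC 3 (adjusted p = 0.0732 and 0.064), and that of Zfp687 also without MSC 1 (adjusted p = 0.0735).

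Of these partners, Zfp687 was also called from OGDR to MSC and Zfp592 from OGDR to rTMS_MSC. Zfp687 stood at 45.2, 42.7, 44.9 and 45.5 CPM in the OGDR libraries, 58.8, 56.4, 56.4 and 53.2 in the MSC libraries and 48.9, 50.1, 48.03 and 44.3 in the rTMS_MSC libraries. It was higher in every MSC library than in any other library. It rose from OGDR to MSC with a log2 fold change of 0.33 (SE 0.07, adjusted p = 0.000956), and rTMS_MSC against OGDR gave 0.10 (SE 0.07, adjusted p = 0.265). Zfp592 was at 47.3 ± 2.9973, 47.8 ± 2.61 and 38.8 ± 3.96 CPM (SD, n = 4) in OGDR, MSC and rTMS_MSC, with a log2 fold change of 0.02 (SE 0.08, adjusted p = 0.912) from OGDR to MSC and -0.28 (SE 0.08, adjusted p = 0.0118) from OGDR to rTMS_MSC. The difference between these genes was not tested.

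Zfp384, a promoter-binding activator, fell with stem cells and stayed lower with stimulation. Its group levels were 67.2 ± 4.73, 57.4 ± 3.22 and 56.5 ± 3.30 CPM (SD, n = 4). From OGDR, Zfp384 had a log2 fold change of -0.23 (SE 0.07, adjusted p = 0.0262) in MSC and -0.25 (SE 0.07, adjusted p = 0.0105) in rTMS_MSC, and the first call was lost without OGDR 2 or MSC 4, each left out in turn (adjusted p = 0.0849 to 0.114). Also of this list, Zfp148 was lower in rTMS_MSC than in both other groups, Zfp131 lower than in MSC only and Zfp263 lower than in OGDR only. These calls were not checked with libraries left out. Other well known members of this list passed no test in any comparison. Among them were Zfp143, an activator at many promoters, Zfp281, a regulator of pluripotency, Zfp335, which is needed by neural progenitors, and Zfp410, an activator of Chd4.

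**Figure D4:**
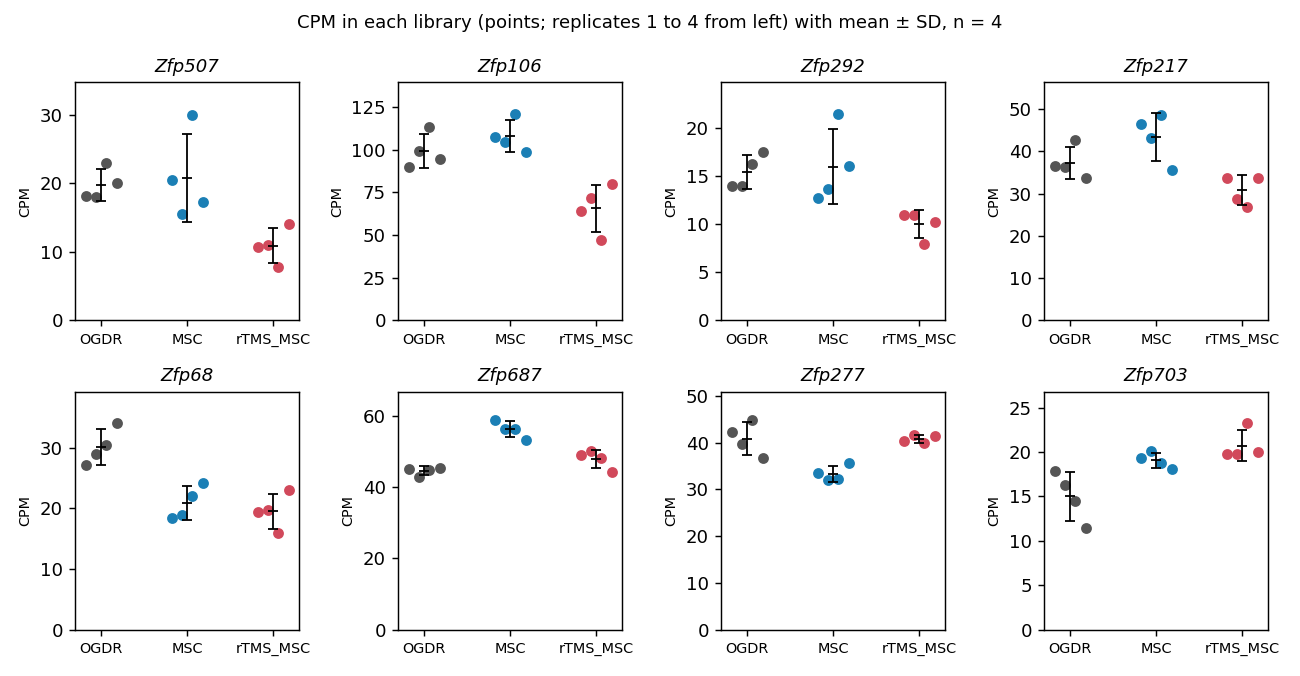
CPM of 8 members (y axes from 0) in each library by group (x axis), with mean ± SD (n = 4). Zfp507, Zfp106 and Zfp292 are lower in all 4 stimulated libraries than in the other 8, Zfp687 is highest and Zfp277 lowest in the MSC libraries, and Zfp68 is highest and Zfp703 lowest in the OGDR libraries.

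Cofactors of differentiation were 11 members. Between OGDR and MSC 2 rose and 1 fell (18.2% and 9.09%, against 13.7% and 10.8% of genes with at least 2400 counts), with a median of 0.10. From MSC to rTMS_MSC 3 fell (27.3%, against 13.7%), with a median of -0.11. From OGDR to rTMS_MSC 2 rose (18.2%, against 19.0%) and 3 fell (27.3%, against 19.9%), with a median of -0.07.

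Zfp292 encodes a very large zinc finger protein, and its human counterpart is a gene of neurodevelopmental disorders. Its levels were 13.9, 13.9, 16.3 and 17.6 CPM in the OGDR libraries, 12.7, 13.7, 21.4 and 16.05 in the MSC libraries and 11.01, 11.01, 7.90 and 10.2 in the rTMS_MSC libraries. The 4 stimulated libraries were below all others, and MSC 3 was the highest of the 12. Zfp292 had a log2 fold change of -0.67 (SE 0.15, adjusted p = 0.00668) against MSC and -0.62 (SE 0.15, adjusted p = 0.00396) against OGDR. The first call was lost when MSC 3 and rTMS_MSC 3 were left out together (adjusted p = 0.0804).

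Zfp516 promotes the brown fat programme. It was at 20.2, 18.4, 18.6 and 17.2 CPM in the OGDR libraries, 21.6, 19.7, 24.5 and 19.4 in the MSC libraries and 16.04, 16.7, 11.7 and 16.00 in the rTMS_MSC libraries. Every stimulated library was below every other library, and rTMS_MSC 3 was below its own group. From MSC, Zfp516 had a log2 fold change of -0.49 (SE 0.11, adjusted p = 0.00724), and without MSC 3 and rTMS_MSC 3 together it was -0.31 (adjusted p = 0.0861). Against OGDR it was -0.30 (SE 0.12, adjusted p = 0.0514). Zfp521, an antagonist of EBF factors in fat, bone and nerve lineages, was at 40.2 ± 1.34, 35.8 ± 2.31 and 31.1 ± 3.32 CPM (SD, n = 4) in OGDR, MSC and rTMS_MSC. Only the comparison of rTMS_MSC with OGDR passed the test, at -0.37 (SE 0.08, adjusted p = 0.00215). Zfp407 fell in both comparisons of rTMS_MSC, with log2 fold changes of -0.40 (SE 0.13, adjusted p = 0.0351) against MSC and -0.36 (SE 0.13, adjusted p = 0.0332) against OGDR, but its groups overlapped in both. The first call was lost without MSC 1, MSC 3, MSC 4, rTMS_MSC 2 or rTMS_MSC 3, each left out in turn (adjusted p = 0.0679 to 0.103) and the second without OGDR 1, OGDR 3, rTMS_MSC 2 or rTMS_MSC 3, each left out in turn (adjusted p = 0.0535 to 0.145).

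Differences from the OGDR group ran upward for Zfp703 and Zfp24. Zfp703 belongs to a small family of corepressors amplified in breast cancer. It stood at 17.9, 16.3, 14.5 and 11.4 CPM in the OGDR libraries, 19.3, 20.1, 18.8 and 18.1 in the MSC libraries and 19.8, 19.8, 23.3 and 20.01 in the rTMS_MSC libraries. The 4 OGDR libraries were the lowest of the 12, and rTMS_MSC 3 the highest. From OGDR, Zfp703 had a log2 fold change of 0.46 (SE 0.12, adjusted p = 0.00454) in rTMS_MSC and 0.35 (SE 0.12, adjusted p = 0.0407) in MSC. The second call was lost without OGDR 3, OGDR 4, MSC 1, MSC 2, MSC 3, MSC 4 or rTMS_MSC 2, each left out in turn (adjusted p = 0.0511 to 0.148).

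Zfp24 is required for myelination of the central nervous system. Its levels were 41.7, 40.2, 38.8 and 42.3 CPM in the OGDR libraries, 52.8, 45.7, 51.9 and 50.6 in the MSC libraries and 48.2, 46.02, 42.5 and 52.4 in the rTMS_MSC libraries. All MSC and stimulated libraries were above all OGDR libraries. Zfp24 had a log2 fold change of 0.30 (SE 0.08, adjusted p = 0.00665) in MSC and 0.22 (SE 0.08, adjusted p = 0.0364) in rTMS_MSC against OGDR, and the second call was lost without OGDR 1, OGDR 2, OGDR 3, rTMS_MSC 1, rTMS_MSC 2 or rTMS_MSC 4, each left out in turn (adjusted p = 0.05135 to 0.117). Zfp358 went the other way with stem cells, at 50.8, 44.5, 49.6 and 45.2 CPM in the OGDR libraries, 38.8, 40.95, 34.5 and 34.8 in the MSC libraries and 41.1, 45.02, 49.1 and 40.6 in the rTMS_MSC libraries. Its log2 fold change was -0.35 (SE 0.08, adjusted p = 0.00443) from OGDR to MSC, with no overlap of the groups, and 0.24 (SE 0.08, adjusted p = 0.0537) from MSC to rTMS_MSC.

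Members that act on RNA, ribosomes, ubiquitin or the spindle, or that were listed with them, numbered 16. From OGDR to MSC 2 fell (12.5%, against 10.8% of genes with at least 2400 counts). From MSC to rTMS_MSC 1 rose (6.25%, against 9.69%) and 4 fell (25%, against 13.7%), and from OGDR to rTMS_MSC 2 rose (12.5%, against 19.0%) and 7 fell (43.8%, against 19.9%). Their medians were 0.03, -0.12 and -0.16.

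Zfp106, an RNA-binding protein needed to maintain motor neurons and muscle, had the lowest adjusted p of them in both comparisons of rTMS_MSC. Its levels were 90.1, 99.2, 113 and 94.7 CPM in the OGDR libraries, 108, 104, 121 and 98.7 in the MSC libraries and 64.1, 71.5, 47.2 and 79.98 in the rTMS_MSC libraries. The stimulated libraries lay at 47.2 to 80.0 CPM and the other 8 at 90.1 to 121. Zfp106 had a log2 fold change of -0.72 (SE 0.11, adjusted p = 0.00105) against MSC and -0.60 (SE 0.11, adjusted p = 0.000468) against OGDR, and neither call was lost when any single library was left out.

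Zfp277 was the only member with a fall from OGDR to MSC and a rise from MSC to rTMS_MSC. It is known for holding the Ink4a locus silent together with Polycomb. Its levels were 42.4, 39.6, 44.8 and 36.7 CPM in the OGDR libraries, 33.4, 32.1, 32.2 and 35.8 in the MSC libraries and 40.3, 41.6, 39.9 and 41.4 in the rTMS_MSC libraries. The MSC libraries were all below the other 8, and OGDR and rTMS_MSC overlapped. Zfp277 had a log2 fold change of -0.29 (SE 0.08, adjusted p = 0.0085) from OGDR to MSC and 0.29 (SE 0.08, adjusted p = 0.0145) from MSC to rTMS_MSC, and both rest on the same 4 MSC libraries. The second call was lost without MSC 3 (adjusted p = 0.0533).

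Zfp451, a SUMO ligase, was at 31.9 ± 1.17, 33.3 ± 2.97 and 25.9 ± 2.45 CPM (SD, n = 4) in OGDR, MSC and rTMS_MSC, and the log2 fold change of rTMS_MSC was -0.36 (SE 0.09, adjusted p = 0.0093) against MSC, lost without MSC 3 and rTMS_MSC 3 together (adjusted p = 0.07295), and -0.30 (SE 0.09, adjusted p = 0.0128) against OGDR. Zfp318, which controls IgD expression in B cells, was at 25.6 ± 2.28, 27.3 ± 1.36 and 20.9 ± 3.18 CPM (SD, n = 4). Its log2 fold change was -0.39 (SE 0.10, adjusted p = 0.0155) against MSC, lost without MSC 1 (adjusted p = 0.0564), and -0.29 (SE 0.10, adjusted p = 0.037) against OGDR, lost without OGDR 3, OGDR 4, rTMS_MSC 1 or rTMS_MSC 3, each left out in turn (adjusted p = 0.0708 to 0.125). Both genes thus stood lowest in the stimulated group. Zfp207, a spindle protein that loads the checkpoint factor Bub3, had a log2 fold change of -0.19 (SE 0.06, adjusted p = 0.0463) from MSC, which was lost without OGDR 2, OGDR 4, MSC 1, MSC 3, MSC 4, rTMS_MSC 1, rTMS_MSC 2 or rTMS_MSC 3, each left out in turn (adjusted p = 0.053 to 0.154).

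Zfp91, a ubiquitin ligase of noncanonical NF-kB signalling, had the highest count of all members. Its levels were 162, 174, 177 and 194 CPM in the OGDR libraries, 148, 149, 165 and 167 in the MSC libraries and 153, 147, 121 and 165 in the rTMS_MSC libraries. The groups overlapped, and the log2 fold change from OGDR to rTMS_MSC was -0.27 (SE 0.08, adjusted p = 0.0127), lost without OGDR 4 (adjusted p = 0.05715). Zfp706 was at 122, 115, 116 and 121 CPM in the OGDR libraries, 106, 104, 107 and 101 in the MSC libraries and 107, 103, 101 and 109 in the rTMS_MSC libraries. Both stem cell groups were below all OGDR libraries, with a log2 fold change of -0.18 (SE 0.05, adjusted p = 0.0169) in MSC and -0.17 (SE 0.05, adjusted p = 0.0169) in rTMS_MSC, and the first call was lost without OGDR 1 (adjusted p = 0.0503).

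The members tied to ribosomes rose or passed no test. Zfp622 takes part in the maturation of the large ribosomal subunit, and it was at 65.7, 70.9, 68.5 and 73.1 CPM in the OGDR libraries, 72.7, 79.1, 77.6 and 82.5 in the MSC libraries and 87.2, 76.98, 78.3 and 76.1 in the rTMS_MSC libraries. Every stimulated library was above every OGDR library, with a log2 fold change of 0.20 (SE 0.06, adjusted p = 0.026) from OGDR, a call lost without OGDR 1, OGDR 3 or rTMS_MSC 1, each left out in turn (adjusted p = 0.0648 to 0.102). Zfp598 marks collided ribosomes with ubiquitin and held 96.7 ± 3.89, 91.6 ± 5.31 and 93.5 ± 2.64 CPM (SD, n = 4). It passed no test: the log2 fold changes were -0.08, 0.03 and -0.05 for MSC against OGDR, rTMS_MSC against MSC and rTMS_MSC against OGDR. Zfp593, another factor of the large subunit, and Zfp638, which recruits the HUSH silencing complex to unintegrated DNA, also passed none. Zfp511 was at 18.4 ± 2.38, 19.9 ± 0.688 and 23.8 ± 2.07 CPM (SD, n = 4), and its log2 fold change from OGDR to rTMS_MSC was 0.37 (SE 0.10, adjusted p = 0.00787) although the groups overlapped.

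**Figure D5:**
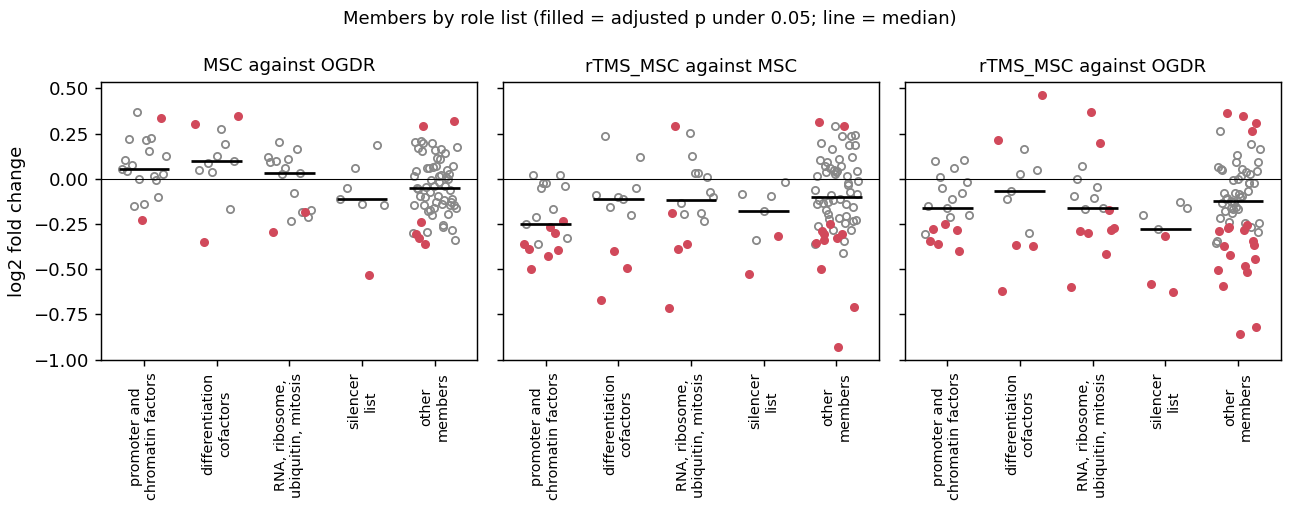
Log2 fold change (y axis) of each member by list (x axis) in the 3 comparisons. Filled points had an adjusted p under 0.05 and lines are medians. For rTMS_MSC against MSC the median is -0.25 for the 19 promoter and chromatin factors, and 8 of them are filled, all below 0.

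A list drawn up for silencers of transposons and imprints held 7 members. From OGDR to MSC 1 fell, from MSC to rTMS_MSC 2 and from OGDR to rTMS_MSC 3 (14.3%, 28.6% and 42.9%, against 10.8%, 13.7% and 19.9% of genes with at least 2400 counts), with medians of -0.11, -0.18 and -0.28, and all 7 estimates of rTMS_MSC lay below 0 against either group.

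Zfp68 had the largest difference between MSC and OGDR of all members. It stood at 27.1, 28.9, 30.5 and 34.1 CPM in the OGDR libraries, 18.4, 18.9, 21.98 and 24.2 in the MSC libraries and 19.4, 19.8, 15.96 and 23.02 in the rTMS_MSC libraries. All OGDR libraries were above all others, and the 2 stem cell groups overlapped. From OGDR, Zfp68 had a log2 fold change of -0.53 (SE 0.11, adjusted p = 0.00186) in MSC and -0.63 (SE 0.11, adjusted p = 0.000319) in rTMS_MSC, against -0.09 (SE 0.12, adjusted p = 0.607) between the last 2. Both calls were kept when any single library was left out.

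Zfp316 was at 13.2, 11.3, 12.5 and 12.3 CPM in the OGDR libraries, 13.4, 10.98, 12.5 and 10.5 in the MSC libraries and 9.06, 8.0038, 8.38 and 7.42 in the rTMS_MSC libraries. All stimulated libraries were below the other 8. Zfp316 had a log2 fold change of -0.53 (SE 0.12, adjusted p = 0.00601) against MSC and -0.58 (SE 0.12, adjusted p = 0.000802) against OGDR, and both calls were kept when any single library was left out. Zfp710 fell from MSC with -0.32 (SE 0.08, adjusted p = 0.0115). Zfp445 protects imprinted loci in the early embryo and held 31.8 ± 1.81, 28.9 ± 1.53 and 25.5 ± 4.23 CPM (SD, n = 4). Its log2 fold change from OGDR to rTMS_MSC was -0.32 (SE 0.10, adjusted p = 0.0227), lost without OGDR 3, OGDR 4, rTMS_MSC 2 or rTMS_MSC 3, each left out in turn (adjusted p = 0.0514 to 0.0714). Zfp317, at -0.34 (SE 0.14, adjusted p = 0.0955) against MSC, and Zfp110, at -0.20 (SE 0.08, adjusted p = 0.0609) against OGDR, did not pass the test.

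The other 64 members stood in none of these lists. From OGDR to MSC 2 rose and 4 fell, from MSC to rTMS_MSC 2 rose and 10 fell, and from OGDR to rTMS_MSC 4 rose and 16 fell. Those that fell were 6.25%, 15.6% and 25% of the 64, against 10.8%, 13.7% and 19.9% of genes with at least 2400 counts, and those that rose 3.12%, 3.12% and 6.25%, against 13.7%, 9.69% and 19.0%. The medians were -0.05, -0.10 and -0.12.

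Zfp507 had the largest change of all 117 rows. Its levels were 18.2, 17.99, 22.95 and 20.1 CPM in the OGDR libraries, 20.5, 15.5, 29.9 and 17.3 in the MSC libraries and 10.7, 11.01, 7.79 and 14.04 in the rTMS_MSC libraries. All stimulated libraries were below all others. MSC 3 was the highest and rTMS_MSC 3 the lowest of the 12. Zfp507 had a log2 fold change of -0.93 (SE 0.18, adjusted p = 0.00282) against MSC and -0.86 (SE 0.18, adjusted p = 0.00111) against OGDR, and both calls were kept when any single library was left out.

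Zfp800 was second in the comparison with OGDR. It stood at 14.6, 13.7, 17.98 and 17.6 CPM in the OGDR libraries, 16.5, 12.3, 17.6 and 12.6 in the MSC libraries and 10.7, 9.11, 5.30 and 11.03 in the rTMS_MSC libraries. The stimulated libraries did not overlap with either group, and rTMS_MSC 3 was again the lowest. Zfp800 had a log2 fold change of -0.71 (SE 0.18, adjusted p = 0.0116) against MSC, lost without MSC 3 (adjusted p = 0.0549), and -0.82 (SE 0.18, adjusted p = 0.00153) against OGDR.

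Zfp236 was at 15.8, 17.1, 20.2 and 16.3 CPM in the OGDR libraries, 16.2, 16.9, 18.8 and 13.02 in the MSC libraries and 12.5, 13.9, 7.90 and 11.7 in the rTMS_MSC libraries. The stimulated libraries overlapped with MSC and lay below all OGDR libraries. Zfp236 had a log2 fold change of -0.50 (SE 0.15, adjusted p = 0.0266) against MSC, lost without MSC 1, MSC 3 or rTMS_MSC 3, each left out in turn (adjusted p = 0.06175 to 0.108), and -0.59 (SE 0.15, adjusted p = 0.00431) against OGDR. In the RefSeq annotation of GRCr8 the next gene to Zfp236 among the members is Zfp516, which fell from MSC by a like amount. Of 9 pairs of members that are direct neighbours, this was the only one with both called in 1 comparison. Of 115 member symbols in that annotation, 27 lie on chromosome 1, 12 on chromosome 4 and 11 on chromosome 10.

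Zfp639, Zfp133 and Zfp623 were among the 10 largest decreases from OGDR to rTMS_MSC. Their log2 fold changes were -0.51 (SE 0.12, adjusted p = 0.00311), -0.50 (SE 0.11, adjusted p = 0.00227) and -0.48 (SE 0.16, adjusted p = 0.028). The MSC mean lay between the others for all 3, and the libraries of Zfp639 overlapped between OGDR and rTMS_MSC. Zfp133 was at 15.7 ± 0.512, 14.2 ± 1.42 and 11.1 ± 1.63 CPM (SD, n = 4), and it also fell from MSC with -0.36 (SE 0.12, adjusted p = 0.0377), lost without MSC 1, MSC 2, MSC 4, rTMS_MSC 2, rTMS_MSC 3 or rTMS_MSC 4, each left out in turn (adjusted p = 0.0516 to 0.09605). The call on Zfp623 was lost without OGDR 1, OGDR 3, rTMS_MSC 2 or rTMS_MSC 4, each left out in turn (adjusted p = 0.0513 to 0.104).

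Zfp330, a nucleolar protein, fell with stem cells. It was at 42.5, 42.6, 44.9 and 51.1 CPM in the OGDR libraries, 35.7, 35.6, 32.7 and 37.3 in the MSC libraries and 38.8, 37.7, 36.6 and 37.4 in the rTMS_MSC libraries. All OGDR libraries were above the other 8. From OGDR, Zfp330 had a log2 fold change of -0.36 (SE 0.08, adjusted p = 0.00181) in MSC and -0.27 (SE 0.08, adjusted p = 0.0113) in rTMS_MSC, the second lost without OGDR 4 (adjusted p = 0.055). Zfp146, a protein made almost wholly of fingers, and Zfp260 also fell in both, by 0.31 and 0.24 on the log2 scale in MSC and by 0.29 and 0.37 in rTMS_MSC. For MSC these calls had adjusted p of 0.0395 and 0.0386. That of Zfp146 was lost without OGDR 2, OGDR 3, OGDR 4, MSC 1, MSC 2, MSC 3 or MSC 4, each left out in turn (adjusted p = 0.0687 to 0.128) and that of Zfp260 without OGDR 2, OGDR 3, OGDR 4, MSC 1, MSC 2, MSC 3 or MSC 4, each left out in turn (adjusted p = 0.052 to 0.128). For rTMS_MSC the call on Zfp146 was lost without OGDR 2, OGDR 3, OGDR 4 or rTMS_MSC 3, each left out in turn (adjusted p = 0.0646 to 0.125), while Zfp260 kept its own. Zfp213 fell from OGDR to MSC only, with -0.33 (SE 0.11, adjusted p = 0.0379), lost without OGDR 1, OGDR 2, OGDR 3, MSC 1, MSC 3 or MSC 4, each left out in turn (adjusted p = 0.0584 to 0.1165).

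Zfp276 and Zfp862 rose with stem cells. Zfp862 was at 24.4, 25.7, 26.5 and 24.9 CPM in the OGDR libraries, 31.8, 33.3, 31.2 and 30.3 in the MSC libraries and 28.9, 28.9, 24.8 and 25.7 in the rTMS_MSC libraries. The MSC libraries were above all others. Zfp862 had a log2 fold change of 0.32 (SE 0.08, adjusted p = 0.00644) from OGDR to MSC and -0.23 (SE 0.08, adjusted p = 0.0542) from MSC to rTMS_MSC. Zfp276 stood at 25.2 ± 2.08, 30.9 ± 1.62 and 32.4 ± 2.61 CPM (SD, n = 4) in OGDR, MSC and rTMS_MSC. Its log2 fold change from OGDR was 0.29 (SE 0.09, adjusted p = 0.0193) in MSC, lost without OGDR 2, OGDR 3 or MSC 2, each left out in turn (adjusted p = 0.0521 to 0.07445), and 0.36 (SE 0.09, adjusted p = 0.00312) in rTMS_MSC.

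Zfp18 and Zfp637 were, with Zfp277, the only members that rose from MSC to rTMS_MSC. Zfp18 was at 12.3, 15.2, 16.2 and 13.6 CPM in the OGDR libraries, 14.9, 12.6, 12.6 and 15.1 in the MSC libraries and 17.5, 17.9, 16.3 and 16.9 in the rTMS_MSC libraries, with a log2 fold change of 0.31 (SE 0.11, adjusted p = 0.0478). Zfp637 was at 20.7, 19.8, 23.4 and 17.9 CPM in the OGDR libraries, 17.7, 16.7, 17.8 and 16.5 in the MSC libraries and 20.5, 20.9, 22.2 and 20.6 in the rTMS_MSC libraries, with a log2 fold change of 0.29 (SE 0.09, adjusted p = 0.0364). The stimulated libraries were above all MSC libraries for both. The call on Zfp18 was lost without OGDR 2, OGDR 4, MSC 1, MSC 2, MSC 3, rTMS_MSC 1, rTMS_MSC 2, rTMS_MSC 3 or rTMS_MSC 4, each left out in turn (adjusted p = 0.0528 to 0.1435), and that on Zfp637 without MSC 1, MSC 2, MSC 3, MSC 4, rTMS_MSC 2 or rTMS_MSC 3, each left out in turn (adjusted p = 0.06715 to 0.108).

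Zfp579, Zfp821 and Zfp771 rose only from OGDR to rTMS_MSC. Their log2 fold changes were 0.35 (SE 0.12, adjusted p = 0.0371), 0.31 (SE 0.09, adjusted p = 0.0156) and 0.26 (SE 0.10, adjusted p = 0.0474). The groups overlapped for the first and the last. Zfp771 was at 43.9, 41.6, 37.7 and 37.97 CPM in the OGDR libraries, 42.4, 42.03, 38.8 and 40.97 in the MSC libraries and 44.2, 43.7, 61.8 and 43.9 in the rTMS_MSC libraries, and rTMS_MSC 3 was far above the other 11. Without it the log2 fold change was 0.12 (adjusted p = 0.26). The call on Zfp771 was also lost without OGDR 2, OGDR 3, OGDR 4, MSC 1, MSC 2 or MSC 4 (adjusted p = 0.0541 to 0.126). The call on Zfp821 was lost without OGDR 3 (adjusted p = 0.0695) and that on Zfp579 without OGDR 2, OGDR 3, OGDR 4, rTMS_MSC 1, rTMS_MSC 2 or rTMS_MSC 3, each left out in turn (adjusted p = 0.0555 to 0.119).

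The corepressors and heterochromatin proteins with which KRAB zinc finger proteins work were read beside the members, as a list of 34 rows for 33 symbols. From OGDR to MSC 3 rose and 1 fell, from MSC to rTMS_MSC 2 rose and 7 fell, and from OGDR to rTMS_MSC 4 rose and 5 fell. Those that fell were 2.94%, 20.6% and 14.7% of the rows, against 8.63%, 10.9% and 16.2% of all tested genes, and those that rose 8.82%, 5.88% and 11.8%, against 11.6%, 7.14% and 16.2%. Of genes with at least 2400 counts, 10.8%, 13.7% and 19.9% fell and 13.7%, 9.69% and 19.0% rose. Of the list, only Suv39h2, with 1802 counts, lay under that limit. The medians were 0.01, -0.10 and -0.02. Trim28, the corepressor that KRAB domains bind, was at 324 ± 22.8, 323 ± 17.4 and 361 ± 28.3 CPM (SD, n = 4) in OGDR, MSC and rTMS_MSC, and Setdb1 at 53.2 ± 1.61, 53.3 ± 2.01 and 49.1 ± 5.06 CPM (SD, n = 4), and neither passed the test in any comparison.

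Atrx, a remodeller that deposits histone H3.3 at silenced repeats, was at 56.9, 58.4, 72.2 and 68.1 CPM in the OGDR libraries, 65.2, 49.5, 80.1 and 56.8 in the MSC libraries and 48.95, 41.7, 33.6 and 47.7 in the rTMS_MSC libraries. The stimulated libraries were below all others, with a log2 fold change of -0.55 (SE 0.13, adjusted p = 0.00794) against MSC and -0.57 (SE 0.13, adjusted p = 0.00218) against OGDR. Cbx1, a reader of methylated H3K9, fell in the same comparisons with -0.42 (SE 0.10, adjusted p = 0.00745) and -0.40 (SE 0.10, adjusted p = 0.00421). Rcor1 also fell in them, with -0.31 (SE 0.06, adjusted p = 0.00274) against MSC and -0.19 (SE 0.06, adjusted p = 0.0219) against OGDR. Chd4 rose from OGDR to MSC with 0.24 (SE 0.05, adjusted p = 0.000892). In the comparisons of rTMS_MSC Chd4 did not pass the test, with -0.13 (adjusted p = 0.0645) against MSC and 0.11 (adjusted p = 0.0784) against OGDR. Smarcad1, a remodeller that keeps heterochromatin through replication, stepped down at 34.98 ± 2.99, 29.4 ± 0.882 and 23.4 ± 2.28 CPM (SD, n = 4), and passed the test in all 3 comparisons with log2 fold changes of -0.25, -0.33 and -0.58. Sumo2, the modifier needed by the Trim28 complex, rose from MSC to rTMS_MSC with 0.20 (SE 0.05, adjusted p = 0.0156). Uhrf1, which brings the maintenance methyltransferase to replicating DNA, was at 165 ± 8.37, 202 ± 8.26 and 166 ± 3.88 CPM (SD, n = 4), and it rose from OGDR to MSC with 0.29 (SE 0.05, adjusted p = 0.000426) and fell from MSC to rTMS_MSC with -0.28 (SE 0.05, adjusted p = 0.00245).

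Other sets outside the members were read with the same fit. The 99 tested Zfp rows under 2400 counts gave 2 higher calls from OGDR to MSC. In that comparison 14 of the 99 had an unadjusted p under 0.05, as had 844 of all 4230 tested genes under 2400 counts. The 99 rows gave 1 higher and 10 lower calls from MSC to rTMS_MSC, and 4 higher and 21 lower from OGDR to rTMS_MSC. The lower calls in the last 2 comparisons were 10.1% and 21.2% of these rows. Of all 4230 tested genes under 2400 counts, 3.71%, 4.78% and 8.16% were lower in the 3 comparisons and 6.83%, 1.42% and 9.76% higher. Their medians were -0.01, -0.21 and -0.18, with 51, 72 and 76 of 99 estimates below 0. These rows have a median SE of 0.19, against 0.10 for the members, so fewer differences of this size are detectable in them. A second set held 33 rows with at least 2400 counts whose symbols begin with Zbtb, Zscan, Zkscan or Znf, and it was chosen after values were seen. It gave 2 higher and 1 lower, 9 lower, and 2 higher and 13 lower calls in the same order, with medians of 0.00 (0.00053), -0.08 and -0.22. The lower calls were 3.03%, 27.3% and 39.4% of these rows, against 10.8%, 13.7% and 19.9% of genes with at least 2400 counts. The higher calls were 6.06%, 0% and 6.06%, against 13.7%, 9.69% and 19.0%. The members, the other Zfp rows and the other zinc finger rows thus had more lower than higher calls in both comparisons of rTMS_MSC, and the sets were not tested against each other. All genes with at least 2400 counts also had more lower than higher calls in both, by less (13.7% and 9.69%, then 19.9% and 19.0%). Tested genes under 2400 counts had more lower calls only from MSC to rTMS_MSC.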

How the data were processed

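The study profiled the transcriptome of 12 RNA-seq libraries of cells labelled PC12, 4 in each of 3 groups. Per the labels' protocols, polyadenylated RNA was selected on oligo(dT) beads and primed with random hexamers. Per the submitters' processing notes, HISAT2 2.1.0, HTSeq 0.11.2 and DESeq2 1.40.1 were used with build mRatBN7.2. For strand and for reads that match several genes, the counting options are not stated in the sources used here. The authors deposited raw counts per gene, without normalization, for 30454 genes. Their 5 HTSeq summary lines entered neither the library sizes nor the tests; reads on no feature were 51.7% to 52.7% of each library.

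From these deposited counts, group means were estimated over the 12 libraries in 1 quasi-likelihood model (glmQLFit, glmQLFTest of edgeR 4.0.16 in R 4.3.3). Genes were kept by filterByExpr (minimum count 10, minimum total 15) and libraries scaled by TMM. P-values are 2-sided and adjusted by Benjamini-Hochberg over 13692 tested genes, with a threshold of 0.05. SEs are the log2 fold change divided by the root of F. CPM was computed here on TMM-scaled sizes, and its log2 with a prior count of 2. Depth was 18246250 to 20471838 counts per library.

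The members, the role lists and the set of other zinc finger genes were chosen with earlier results of these data known. Named in each comparison were the 10 members with the largest changes per direction that passed the test, up to 6 per list by the test of any difference, the 5 with the highest counts and 3 on each side of the count limit. Grouping the members by protein domains was planned and not run, because no protein table was used here. Promoter windows come from RefSeq (GRCr8). Beside the marker genes and promoter windows that are given, 1 further marker gene and 1 further window are not reported here. Alternatives were other scalings, filters, thresholds and count limits, DESeq2 1.42.0, a replicate block, fits to 8 libraries and leaving out libraries. The scripts were tested on simulated data.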

Additional observations from a re-analysis of the deposited data

Results flagged for a closer look

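Dixon's test was applied to the CPM of 46 named members and to their summed CPM within each group of 4, which makes 141 groups. It marked 8 groups in which 1 library stood away from the other 3. Chance flags about 1 in 20 groups.

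In 5 of the 8 the library was rTMS_MSC 3. There it was the highest of its group for Zfp703, at 23.32 CPM against 19.77 to 20.01, and for Zfp771, at 61.75 against 43.7 to 44.22. It was the lowest for Zfp146, at 22.9 CPM against 30.54 to 31.74, for Zfp516, at 11.66 against 16 to 16.74, and for Zfp110, at 32.23 against 36.4 to 37.23. In the MSC group, MSC 3 was the lowest for Zfp511, at 18.89 CPM against 20.24 to 20.29, and for Zfp821, at 20.3 against 23.26 to 23.71. In the OGDR group, OGDR 3 was the highest for Zfp451, at 33.61 CPM against 31.1 to 31.47.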

How the results depend on the processing

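No called comparison of a named member changed direction under any alternative. Of these called comparisons, 7 of 14, 5 of 21 and 15 of 32 kept their call under all alternatives (MSC against OGDR, rTMS_MSC against MSC, rTMS_MSC against OGDR). Comparisons in which a named member was not called were not checked in this way. An adjusted p under 0.01 left 3 higher and 4 lower members from OGDR to MSC, 0 and 9 from MSC to rTMS_MSC, and 3 and 15 from OGDR to rTMS_MSC, since fewer genes pass a stricter threshold. From MSC to rTMS_MSC the 3 higher calls became 6 with DESeq2, 1 without a filter, 1 with membership at 4800 counts, 1 in the fit to the 8 libraries compared and 0 without MSC 3 and rTMS_MSC 3 together. Without these 2 libraries 7 members were lower, and the medians were -0.01794, -0.08741 and -0.1217 in the order above. Membership at 4800 counts, which keeps 70 members, gave 21 lower members from OGDR to rTMS_MSC and a median of -0.1051. Apart from the construction of each setting, the cause was not tested. Among the alternatives, the share of other genes called was counted only where 1 library, or MSC 3 and rTMS_MSC 3 together, were left out.

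With 1 library left out at a time, the members higher numbered 4 to 9, 0 to 5 and 4 to 8 in the 3 comparisons, and those lower 5 to 11, 14 to 29 and 26 to 38. The lower were 4.27% to 9.4%, 12% to 24.8% and 22.2% to 32.5% of the members. Of genes with at least 2400 counts, 8.1% to 14.2%, 6.76% to 17% and 15.3% to 21.4% were lower in the same fits. The higher were 3.42% to 7.69%, 0% to 4.27% and 3.42% to 6.84% of the members, against 11.4% to 16.6%, 2.83% to 13.5% and 15.2% to 20%. The members' medians ran from -0.02002 to 0.01542, from -0.1526 to -0.1052 and from -0.1667 to -0.1264. A replicate block gave 5 higher and 7 lower, 2 and 23, and 7 and 31 members. Replicate numbers are shared between groups, and the labels do not say what a number marks. Of 12 pairs with the same number 1 correlated above 0.1 (r from -0.205 to 0.128). Only 4 of 12 libraries correlated best with their own number. So few pairs cannot show whether samples with the same number share a culture or a day. Counting error alone gives a coefficient of variation of 7.07% at 200 counts per library, the mean at the count limit. Over all members its median was 4.54% in OGDR and 4.52% in MSC, against a median spread of 7.97% and 8.39%. How far depth limits the calls for members near the count limit was not tested.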
